A study of Ovis aries with 15 samples.

Results

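The 5 genes described here, NPHS1, PODXL, PTPRO, SYNPO and WT1, are marker genes of the podocyte, and they were measured in sheep kidney by RNA sequencing. They were chosen by their symbols and make up 5 of the 25592 genes in the count and FPKM tables. FPKM is a fragment count scaled to the length of the gene and the depth of the library. The sheep were male Dorper × Small-tailed Han crosses, and 3 groups were kept for 21 d on a total mixed ration. CON sheep received the ration alone, AFB1 sheep received it with 500 μg/kg dry matter of aflatoxin B1, a mold toxin, and AFB1_CUR sheep received that dose with 800 mg/kg dry matter of curcumin, a plant polyphenol. Each group had 5 libraries, each from the kidney of a separate sheep, and no group received curcumin without the toxin. The sources used here do not name the zone of the kidney that was sequenced, and glomeruli lie in the cortex.

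Podocytes wrap the capillaries of the glomerulus with interlocking foot processes, and the slit diaphragm that bridges neighboring processes completes the filtration barrier of the kidney. Nephrin, the product of NPHS1, is a main structural protein of that diaphragm. Podocalyxin (PODXL) is the negatively charged sialomucin of the foot process surface, PTPRO encodes the receptor tyrosine phosphatase GLEPP1 on the same surface, synaptopodin (SYNPO) binds actin inside the foot processes, and WT1 is a transcription factor that podocytes keep in adult life. Of the 5, only NPHS1 thus encodes a component of the slit diaphragm itself, and the set is called podocyte genes below. PODXL is also made by endothelium, SYNPO by contractile cells and neurons, and WT1 by mesothelium.

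On the assembly whose coordinates the tables share, ARS-UI_Ramb_v3.0, NPHS1 lies at chr14:45841835-45861078 on the minus strand. PODXL lies at chr4:96899295-96951613, PTPRO at chr3:199962609-200230651 and WT1 at chr15:61942099-61989547, all on the minus strand. SYNPO lies at chr5:59739224-59799335 on the plus strand. The neighbor of NPHS1, KIRREL2, which encodes a nephrin-related protein, starts 3496 bp away on the opposite strand and reached at most 0.595 FPKM in any library. An antisense locus, LOC132659708, overlaps PODXL and had at most 36 counts in a library, and a locus overlapping NPHS1, LOC114118154, had at most 3. Whether counting used the strand of the reads is not stated in those sources.

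The library labelled AFB1 replicate 1 stood apart and was kept out of the comparisons. Its summed FPKM over a hepatocyte list was 57903, against 67.3 to 387 in the other 14 libraries, and the sum over the list for loop, distal tubule and collecting duct was 17.6, against 1059 to 3100. NPHS1 had a count of 0 there, which allows up to 0.0535 CPM (3 counts of the library total, with CPM a count scaled to library depth). PTPRO had 20 counts, WT1 26 and PODXL 404. On the scale of CPM, these levels were 0.459%, 2.44% and 2.33% of the level in the lowest of the other 14 libraries. SYNPO was the member with the most signal in that library, with 831 counts, or 32.4% of the lowest other library. Below, the AFB1 group means replicates 2 to 5, and of the values printed for the podocyte genes and the podocyte lists, those whose direction turns with replicate 1 are also given with it.

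Total counts ranged from 50255295 to 68747047 per library in the CON group, from 53609682 to 62999325 in the AFB1 group with replicate 1, and from 55108041 to 65706914 in the AFB1_CUR group. All 5 podocyte genes passed the filter of at least 1 FPKM in at least 5 of the 14 libraries. Their counts in these libraries ran from 1154, for WT1 in AFB1 replicate 5, to 39005, for PODXL in AFB1 replicate 3. Group differences come from the quasi-likelihood test of edgeR, fitted over 13162 genes. A gene was called at a Benjamini-Hochberg adjusted p under 0.05, and the study's own screening conditions, an unadjusted p under 0.05 with a fold change above 1.5, were counted separately.

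The podocyte genes kept a steady order of level. Over the 14 libraries the mean FPKM was 74.0 for PODXL, 16.1 for PTPRO, 11.8 for WT1, 9.42 for NPHS1 and 6.68 for SYNPO. PODXL ranked 667th of 25592 genes by mean FPKM and SYNPO 6562nd. PODXL exceeded PTPRO, and PTPRO exceeded WT1, in 14 of 14 libraries. WT1 exceeded NPHS1 in 12 of 14, and NPHS1 exceeded SYNPO in 12 of 14, so the lower neighbors in the order overlapped.

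**Figure D1:**
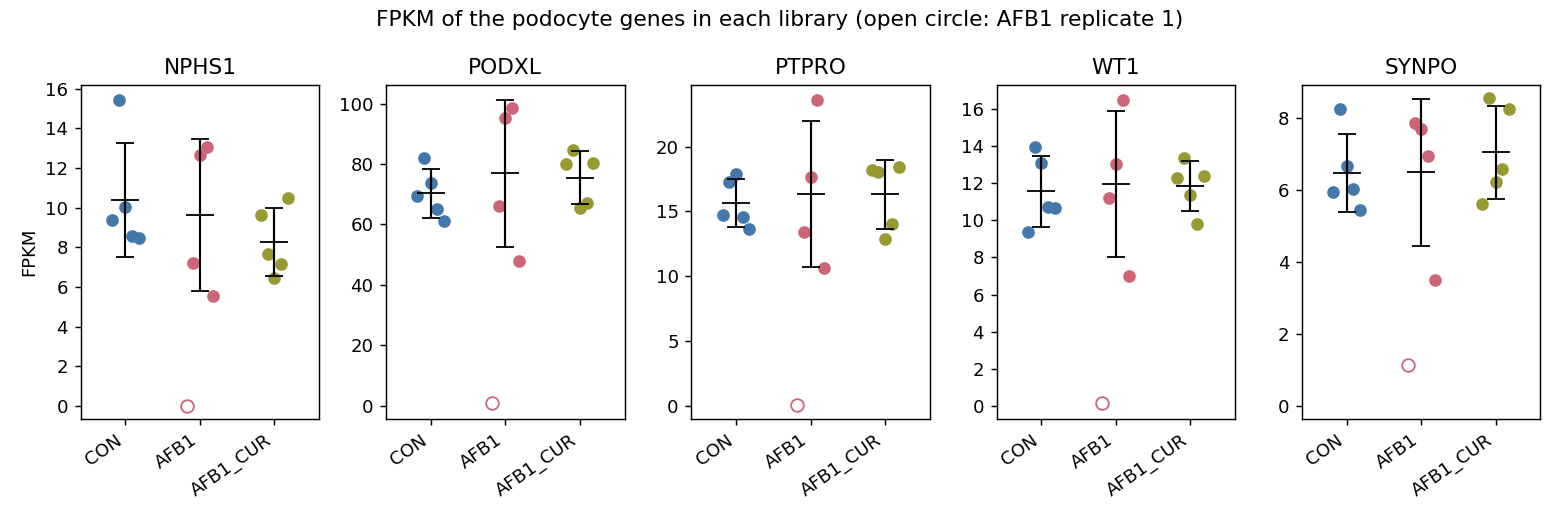
FPKM (vertical axes, from 0) of each podocyte gene in each library of the CON, AFB1 and AFB1_CUR groups. Points are libraries in replicate order, horizontal bars are means and error bars SD over 5, 4 and 5 libraries, and the open circle is the library labelled AFB1 replicate 1, which lies below every other library and is left out of mean and SD. The AFB1 points are the most spread out, from 47.8 to 98.6 for PODXL.

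NPHS1, the nephrin gene, showed no called difference between groups, and its lowest group mean was in AFB1_CUR. In CON replicates 1 to 5 its FPKM was 9.39, 15.4, 10.1, 8.58 and 8.47. In AFB1 replicates 2 to 5 it was 7.20, 12.7, 13.1 and 5.52, and in AFB1_CUR replicates 1 to 5 it was 9.62, 7.68, 6.43, 7.16 and 10.5. The 3 groups overlapped, with CON replicate 2 above all other libraries and AFB1 replicate 5 below them. The group means were 10.4 ± 2.89 (SD, n = 5) for CON, 9.62 ± 3.83 (SD, n = 4) for AFB1 and 8.28 ± 1.72 (SD, n = 5) for AFB1_CUR.

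The fitted log2 difference of NPHS1 was -0.11 (SE 0.25) for AFB1 against CON, with a 95% interval from -0.64 to 0.42 and an edgeR adjusted p of 0.978. It was -0.27 (SE 0.25) for AFB1_CUR against AFB1, with an interval from -0.81 to 0.26 and an edgeR adjusted p of 0.99999. Between AFB1_CUR and CON it was -0.38 (SE 0.23), with an interval from -0.89 to 0.12 and an edgeR adjusted p of 0.8287. The unadjusted p of this last difference was 0.124 in edgeR, and without CON replicate 2 the difference was -0.23.

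PODXL, the podocalyxin gene and the most abundant of the 5, had FPKM values of 69.4, 82.1, 73.6, 65.1 and 61.1 in CON replicates 1 to 5. In AFB1 replicates 2 to 5 it was at 66.1, 95.1, 98.6 and 47.8, so this group held both the highest libraries and the lowest. In AFB1_CUR replicates 1 to 5 it was at 79.9, 84.8, 65.6, 67.0 and 80.4. The CON and AFB1_CUR ranges overlapped and both lay inside the AFB1 range. The means were 70.3 ± 8.09 (SD, n = 5), 76.9 ± 24.2 (SD, n = 4) and 75.5 ± 8.69 (SD, n = 5) in CON, AFB1 and AFB1_CUR. The log2 difference was 0.12 (SE 0.18; interval -0.25 to 0.50; edgeR adjusted p = 0.972) for AFB1 against CON. It was -0.09 (interval -0.47 to 0.29; edgeR adjusted p = 0.99999) for AFB1_CUR against AFB1, and 0.03 (interval -0.32 to 0.39; edgeR adjusted p = 0.980) for AFB1_CUR against CON.

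PTPRO, the GLEPP1 phosphatase gene, followed PODXL closely from library to library. Its FPKM was 14.7, 17.3, 17.9, 14.6 and 13.7 in CON replicates 1 to 5, and 13.4, 17.6, 23.6 and 10.6 in AFB1 replicates 2 to 5. In AFB1_CUR replicates 1 to 5 it was 18.2, 18.1, 12.9, 14.1 and 18.4. AFB1 replicates 4 and 5 were again the highest and the lowest of the 14 libraries. The means were 15.6 ± 1.86 (SD, n = 5), 16.3 ± 5.63 (SD, n = 4) and 16.3 ± 2.63 (SD, n = 5) in the same order of groups. The log2 difference was 0.06 (SE 0.19; interval -0.35 to 0.47; edgeR adjusted p = 0.979) for AFB1 against CON. It was -0.07 (interval -0.48 to 0.34) for AFB1_CUR against AFB1 and -0.01 (interval -0.40 to 0.37) for AFB1_CUR against CON.

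SYNPO, the synaptopodin gene, had FPKM values of 5.94, 8.25, 6.68, 6.04 and 5.44 in CON replicates 1 to 5. It was at 7.87, 7.69, 6.94 and 3.49 in AFB1 replicates 2 to 5, and at 5.62, 8.55, 6.22, 6.57 and 8.27 in AFB1_CUR replicates 1 to 5. The value of AFB1 replicate 5 was below all others, and the other 3 AFB1 libraries lay within the CON range. The means were 6.47 ± 1.09 (SD, n = 5), 6.50 ± 2.04 (SD, n = 4) and 7.05 ± 1.29 (SD, n = 5). The log2 difference was -0.01 (SE 0.18; interval -0.39 to 0.36; edgeR adjusted p = 0.996) for AFB1 against CON, 0.06 (interval -0.32 to 0.44) for AFB1_CUR against AFB1 and 0.05 (interval -0.31 to 0.40) for AFB1_CUR against CON.

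WT1, the transcription factor gene, had FPKM values of 9.36, 13.9, 13.1, 10.7 and 10.6 in CON replicates 1 to 5. In AFB1 replicates 2 to 5 it was at 11.2, 13.0, 16.5 and 7.02, and in AFB1_CUR replicates 1 to 5 at 12.3, 13.4, 11.4, 9.83 and 12.4. Its group means were the closest of the 5 genes, at 11.6 ± 1.902 (SD, n = 5), 11.9 ± 3.94 (SD, n = 4) and 11.9 ± 1.34 (SD, n = 5). The log2 difference was 0.04 (SE 0.18; interval -0.35 to 0.43; edgeR adjusted p = 0.987) for AFB1 against CON, -0.07 (interval -0.46 to 0.31) for AFB1_CUR against AFB1 and -0.03 (interval -0.40 to 0.33) for AFB1_CUR against CON.

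Counted together, 0 of the 5 podocyte genes were called in any of the 3 comparisons by edgeR, and none had an unadjusted p under 0.05. At the adjusted threshold, 0% of the 13162 tested genes were called in each comparison, while 664, 303 and 723 genes (5.04%, 2.3% and 5.49%) had an unadjusted p under 0.05 in AFB1 against CON, AFB1_CUR against AFB1 and AFB1_CUR against CON. DESeq2 called 17, 3 and 1 genes and no podocyte gene. The screening conditions held for 1.76%, 0.935% and 1.63% of all tested genes in the 3 comparisons and for 0 of the 5. The FPKM ranges of the groups overlapped for all 5 genes in each comparison, while 1.54%, 0.676% and 0.722% of tested genes had ranges without overlap. The median log2 difference of the 5 was 0.04, -0.07 and -0.01, beside 0.02, 0.00 and -0.00 over all genes tested. The comparisons share libraries and are not independent of each other. In bulk tissue, fewer podocytes and less RNA per podocyte cannot be told apart.

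With the library labelled AFB1 replicate 1 included, all 5 genes had negative log2 differences for AFB1 against CON, from -0.43 for NPHS1 to -0.19 for PODXL, and positive ones for AFB1_CUR against AFB1, from 0.05 for NPHS1 to 0.28 for SYNPO. None was called. The interval for NPHS1 in AFB1 against CON then ran from -2.16 to 1.30. The AFB1 mean of PODXL was 61.8 FPKM with that library and 76.9 without it, and the AFB1 mean of NPHS1 was 7.70 with it and 9.62 without it.

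**Figure D2:**
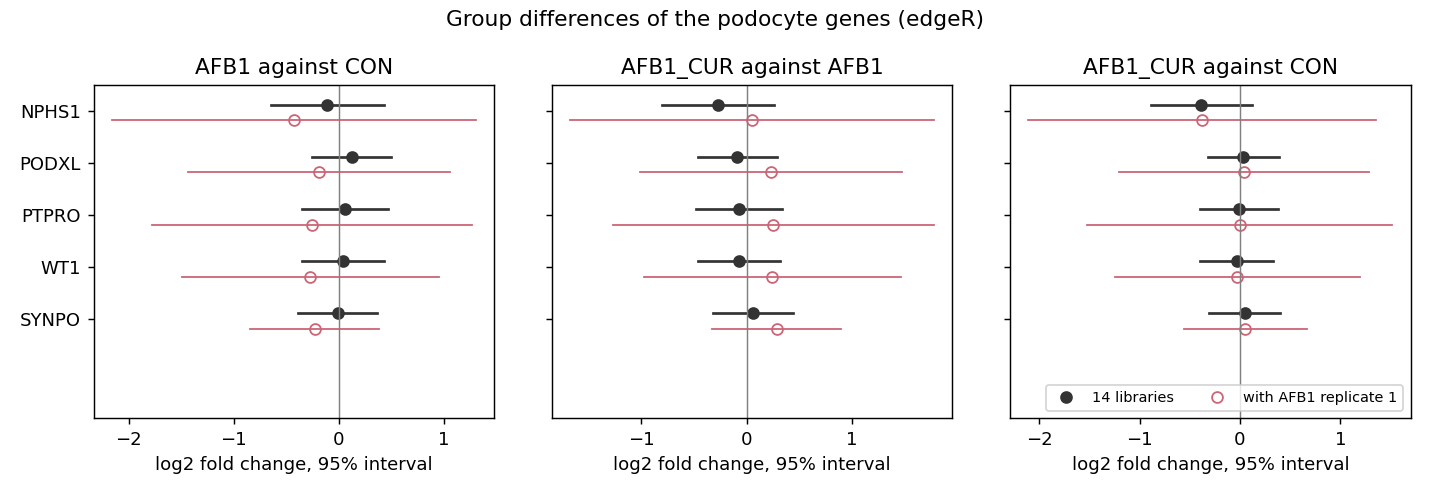
Log2 fold change (horizontal axes) of each podocyte gene in the 3 comparisons, with 95% intervals from edgeR. Filled circles are the fits on 14 libraries, where all intervals include 0 and NPHS1 in AFB1_CUR against CON lies at -0.38, and open circles are the fits with the library labelled AFB1 replicate 1, which widen every interval.

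The libraries of the AFB1 group lay far apart from each other. The SD of log2 FPKM among the 4 AFB1 libraries was between 0.49 for PODXL and 0.62 for NPHS1, and 75.4% to 84.3% of genes had a smaller SD in that group. In the CON group the SD ran from 0.16 for PODXL to 0.36 for NPHS1, and in the AFB1_CUR group from 0.17 for WT1 to 0.30 for NPHS1, beside a median over all genes of 0.25 and 0.28. The difference in spread between groups was not tested. AFB1 replicate 5 was the lowest of the 14 libraries for all 5 genes, and AFB1 replicate 4 was the highest for PODXL, PTPRO and WT1. From the lowest library to the highest, the FPKM differed 2.06 times for PODXL, 2.22 for PTPRO, 2.35 for WT1, 2.45 for SYNPO and 2.79 for NPHS1.

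Other cell type lists also differed between these libraries. In AFB1 replicate 5 the summed FPKM of the proximal tubule list was 6490, the highest of the 14, against 3395 in AFB1 replicate 4. The endothelial sum was 282 in replicate 5, the lowest of the 14, against 444 in replicate 4, and the mesothelial sum was 13.6, again the lowest, against 32.2. The leukocyte sum was 191 against 387. The part of tissue composition in the podocyte gene levels was not tested.

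**Figure D3:**
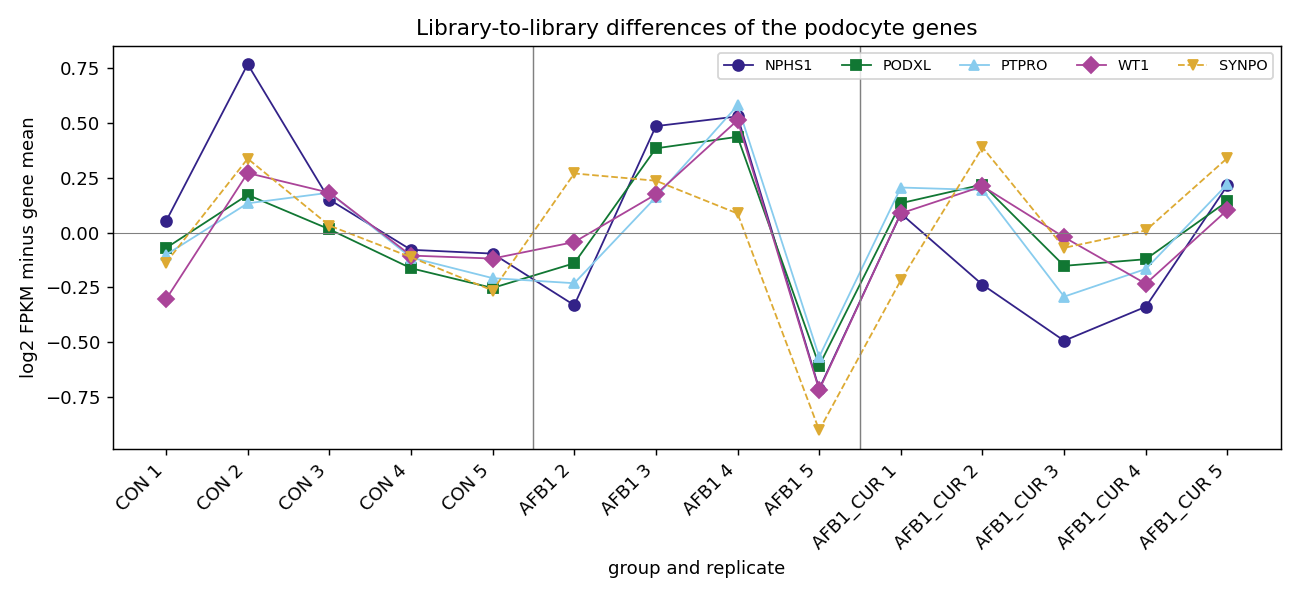
Log2 FPKM minus the gene's mean over 14 libraries (vertical axis) of each podocyte gene, by group and replicate (horizontal axis), with lines joining the values of a gene. PODXL, PTPRO and WT1 run close together, AFB1 replicate 5 is the lowest library for all 5 genes, and NPHS1 stands above the others in CON replicate 2, at 15.4 FPKM.

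Across the 14 libraries the podocyte genes moved together, PODXL, PTPRO and WT1 most closely. All 10 pairs had a positive Pearson r of log2 CPM, from 0.477 to 0.921, and 8 of 10 had a permutation p adjusted over the 10 pairs under 0.05. PODXL and PTPRO, both of the foot process surface, had the highest r, 0.921 (permutation p = 1e-05, the smallest the resamples can give, adjusted p = 0.0001), with a Spearman rho of 0.939 (permutation p = 1e-05). Without AFB1 replicates 4 and 5, the 2 libraries farthest from the PODXL median, r was 0.830, and with group means removed it was 0.929. PTPRO and WT1 had an r of 0.873 (adjusted p = 0.00055 from a permutation p of 0.00011), and rho was 0.873 (permutation p = 0.00015), and r was 0.696 without the same 2 libraries. PODXL and WT1 had an r of 0.871 (adjusted p = 0.000933 from a permutation p of 0.00028), and rho was 0.851 (permutation p = 0.00019), and r was 0.649 without them.

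NPHS1 followed the same 3 genes at a lower r. With PODXL its r was 0.801 (adjusted p = 0.00132 from a permutation p of 0.00053), and rho was 0.851 (permutation p = 0.00019), and r was 0.831 without CON replicate 2 and AFB1 replicate 5. With group means removed, that r was 0.911. Against PTPRO, r reached 0.787 (adjusted p = 0.00132 from a permutation p of 0.00066), while rho reached 0.811 (permutation p = 0.00074). Against WT1, r reached 0.738 (adjusted p = 0.00315 from a permutation p of 0.00189), while rho reached 0.793 (permutation p = 0.00137). Without CON replicate 2 and AFB1 replicate 5 these r values were 0.842 and 0.682.

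SYNPO was the least tied to the rest. Its r was 0.651 with WT1 (permutation p = 0.019, adjusted p = 0.0263; rho 0.538, permutation p = 0.0503) and 0.618 with PODXL (permutation p = 0.021, adjusted p = 0.0263; rho 0.499, permutation p = 0.0729). With NPHS1 it was 0.482 (permutation p = 0.0754, adjusted p = 0.0838; rho 0.512, permutation p = 0.0633), and with PTPRO 0.477 (permutation p = 0.0897, adjusted p = 0.0897; rho 0.402, permutation p = 0.155). With the 2 farthest libraries left out, the r of SYNPO with the other 4 genes was between 0.146 and 0.360. The 2 were AFB1 replicate 5 in each case, with AFB1 replicate 4 or CON replicate 2. Leaving out only AFB1 replicate 5 gave an r of 0.332 with WT1, 0.373 with PODXL, 0.304 with NPHS1 and 0.242 with PTPRO. For each pair this was the lowest r of any single exclusion, so these relations leaned most on that library. Leaving out only AFB1 replicate 4 raised the r with WT1 to 0.719. Without AFB1 replicate 5 alone, 6 of the 10 pairs passed the threshold. The points share their normalization and the sampling of the tissue, whose part in these values was not tested.

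Levels relative to PODXL were compared after the values had been seen, and are given with no test. The ratio of PTPRO to PODXL had a coefficient of variation of 7.30% over the 14 libraries and that of WT1 to PODXL 8.80%, while SYNPO to PODXL varied by 15.3% and NPHS1 to PODXL by 18.6%. The ratio of NPHS1 to PODXL ran from 0.132 to 0.188 in CON (median 0.137), from 0.109 to 0.133 in AFB1 and from 0.0906 to 0.131 in AFB1_CUR (median 0.107). The CON and AFB1_CUR ranges thus did not overlap, by a margin of 0.1307 in AFB1_CUR replicate 5 against 0.1318 in CON replicate 4. Of 13161 genes, 0.653% had ratios to PODXL without overlap in that comparison, and of the 4 podocyte ratios only that of NPHS1 did. In AFB1 against CON and AFB1_CUR against AFB1, 0 of the 4 podocyte ratios were without overlap, beside 0.729% and 0.251% of genes. With other denominators the 2 groups overlapped, from 0.562 to 0.891 in CON and 0.425 to 0.572 in AFB1_CUR for NPHS1 to PTPRO, and from 0.767 to 1.106 and 0.565 to 0.847 for NPHS1 to WT1.

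Other genes of the podocyte and its basement membrane were read from lists of the pathway. Of 13 tested slit diaphragm partners, proteins that bind nephrin or signal from it, 0 were called by either rule in any comparison. Their median log2 difference was 0.13 for AFB1 against CON, with 12 of 13 positive, 0.07 for AFB1_CUR against AFB1, and 0.14 for AFB1_CUR against CON, with 12 of 13 positive. With the library labelled AFB1 replicate 1 included, the median for AFB1 against CON was -0.02, with 6 of 13 positive. In AFB1_CUR against CON 3 of the 13 had an unadjusted p under 0.05 in edgeR, beside 5.49% of all genes tested. One was CD2AP, the adaptor between nephrin and actin, at 0.54 (SE 0.20, edgeR adjusted p = 0.823), and another was IQGAP1, a scaffold protein, at 0.36 (SE 0.15, edgeR adjusted p = 0.823). The other was NCK1, an adaptor that binds phosphorylated nephrin, at 0.28 (SE 0.11, edgeR adjusted p = 0.823), named after its values were seen. With the library labelled AFB1 replicate 1 included, the unadjusted p in edgeR was 0.0278 for CD2AP, 0.0383 for NCK1 and 0.142 for IQGAP1. CD2AP averaged 6.58 ± 1.92 FPKM in CON (SD, n = 5), 8.63 ± 0.579 in AFB1 (SD, n = 4) and 10.003 ± 2.65 in AFB1_CUR (SD, n = 5).

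Among 13 tested genes of the podocyte cytoskeleton 0 were called by either rule. The 3 most abundant, EZR (ezrin, which links podocalyxin to actin), ACTN4 (an actin crosslinker) and NHERF2 (an ezrin-binding scaffold), had log2 differences of -0.03, -0.13 and -0.24 for AFB1 against CON. For AFB1_CUR against CON they were -0.12, -0.11 and -0.18. Over the 14 libraries, Pearson r with the mean standardized pattern of the 5 podocyte genes was -0.506 for EZR, 0.1245 for ACTN4 and 0.483 for NHERF2. Of 6 podocyte transcription factors 0 were called, and TCF21 and FOXC1 had differences of -0.20 and 0.18 for AFB1 against CON. With the library labelled AFB1 replicate 1 included, FOXC1 was at -0.12, and the median of the 6 was -0.26 in place of 0.03. Of 12 genes of the glomerular basement membrane and its receptors 0 were called. There CD151, a tetraspanin, ITGB1, the integrin beta 1 chain, and AGRN, agrin, had differences of -0.10, 0.27 and -0.21 for AFB1_CUR against CON. ITGB1 was the 1 gene of the 12 with an unadjusted p under 0.05 there (0.017 in edgeR, adjusted p = 0.823), and with the library labelled AFB1 replicate 1 included its unadjusted p was 0.106. Of 9 podocyte surface and secreted proteins, 1 passed the screening conditions, in AFB1_CUR against CON, where the background was 1.63%. This was BMP7, a secreted growth factor, at 0.80 (SE 0.36, edgeR adjusted p = 0.823), with 1.40 ± 0.468 FPKM in CON (SD, n = 5) and 2.62 ± 1.57 in AFB1_CUR (SD, n = 5). With the library labelled AFB1 replicate 1 in the fit, BMP7 no longer passed (unadjusted p = 0.169 in edgeR).

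Lists of other cell types held few differences that met either rule. Of 9 proximal tubule genes, 9 had negative log2 differences for AFB1 against CON (median -0.32) and for AFB1_CUR against CON (median -0.27), and 0 were called. Of 8 leukocyte genes, 8 had positive differences in both comparisons (median 0.68 and 0.83). The genes of a list were measured in the same libraries, so their signs are not independent. CD68, a macrophage marker, passed the screening conditions in AFB1_CUR against CON at 1.95 (edgeR adjusted p = 0.823), where the background was 1.63%. CD68 did not pass with the library labelled AFB1 replicate 1 in the fit (unadjusted p = 0.067 in edgeR). ALB, the albumin gene, passed the screening conditions in AFB1_CUR against AFB1 at -3.75 (edgeR adjusted p = 0.99999), where the background was 0.935%. Its FPKM ran from 0.0443 to 23.9 in AFB1 and from 0 to 1.08 in AFB1_CUR. Of 10 hepatocyte genes, ALB was the only one to meet a rule in these 14 libraries. Among the lists for endothelium (12 genes), mesangium, pericytes and smooth muscle (9), mesothelium (2), loop, distal tubule and collecting duct (11) and adipocytes (1), 0 genes met either rule.

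The 5 podocyte genes were set against the mean log2 CPM of 7 of these lists, which gave 35 relations. Of these, 7 had a permutation p adjusted over the 35 under 0.05. The list of podocyte surface and secreted proteins passed with 0 podocyte genes, at r from -0.082 for SYNPO to 0.583 for PTPRO. SYNPO tracked the podocyte transcription factor list at r = 0.913 (permutation p = 0.00012, adjusted p = 0.0042; rho 0.771, permutation p = 0.00191), and r was 0.824 without AFB1 replicates 4 and 5. It also followed the endothelial list at r = 0.814 (permutation p = 0.00051, adjusted p = 0.00893; rho 0.741, permutation p = 0.00339), with r = 0.565 without CON replicate 5 and AFB1 replicate 5. SYNPO ran against the proximal tubule list at r = -0.735 (permutation p = 0.00135, adjusted p = 0.0158; rho -0.745, permutation p = 0.00311), with r = -0.759 without the 2 farthest libraries and -0.809 with group means removed.

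PODXL and WT1 followed the same pair of lists. With the transcription factor list their r was 0.752 in both cases (permutation p = 0.00225 and 0.00372, adjusted p = 0.0197 and 0.026), with rho of 0.701 and 0.631 (permutation p = 0.00666 and 0.0179). Without AFB1 replicates 4 and 5 these r values were 0.437 and 0.258. With the endothelial list r was 0.689 for PODXL and 0.687 for WT1 (permutation p = 0.00694 and 0.00752, adjusted p = 0.0376 for both), with rho of 0.508 and 0.622 (permutation p = 0.0656 and 0.02), and 0.470 and 0.634 without the 2 farthest libraries. NPHS1 and PTPRO passed the threshold with none of the 7 lists, while with group means removed NPHS1 passed with the endothelial list (permutation test, adjusted p = 0.0456) and PTPRO with the transcription factor list (permutation test, adjusted p = 0.0484). The number past the adjusted threshold was 0 of 35 without AFB1 replicate 5, 3 without AFB1 replicate 4 and 4 without CON replicate 2. The r of SYNPO with the proximal tubule list lay between -0.767 and -0.716 under every single exclusion, and that of SYNPO with the transcription factor list between 0.768 and 0.940.

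**Figure D4:**
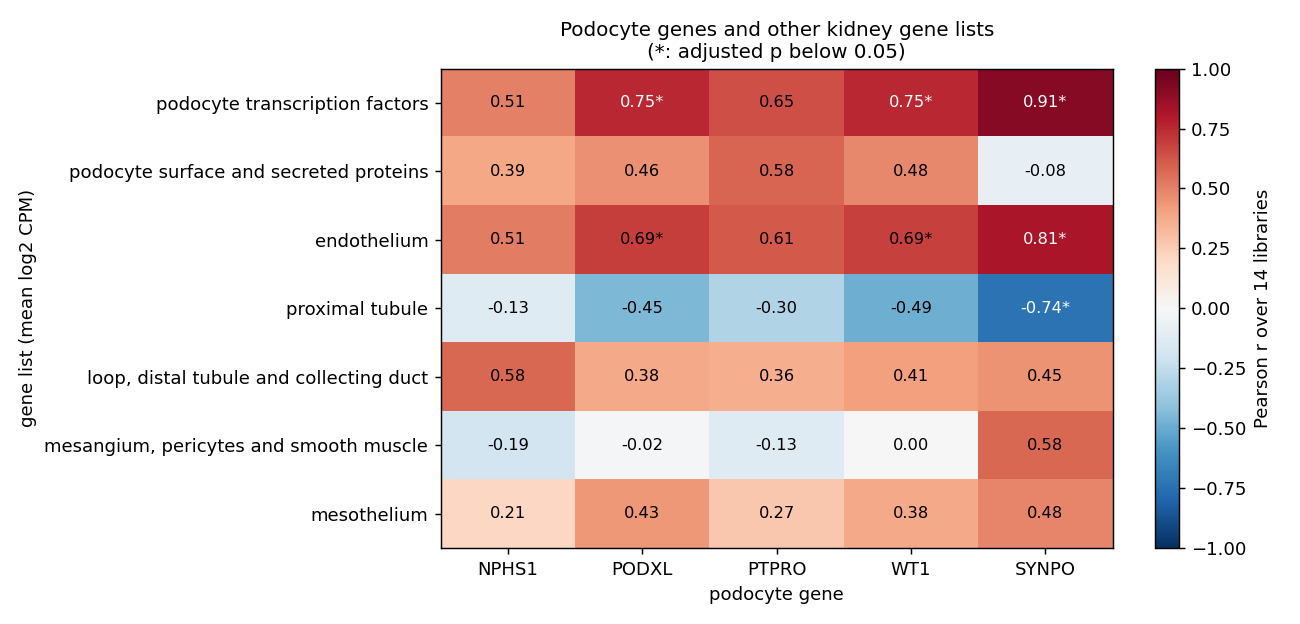
Pearson r over 14 libraries (color, from -1 to 1, and printed value) between each podocyte gene (columns) and the mean log2 CPM of 7 gene lists (rows), with asterisks at an adjusted permutation p under 0.05. SYNPO has the highest r, 0.91 with the podocyte transcription factors, and the lowest, -0.74 with the proximal tubule.

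The tested genes whose library pattern was nearest to each podocyte gene, by Pearson r over 14 libraries and with no test, differed between the 5. For PODXL they were PTPRO, HS3ST3A1 (a heparan sulfate sulfotransferase, 0.891), WT1, CLEC14A (an endothelial lectin, 0.866) and PARD3B (a polarity protein, 0.862). Those of PTPRO included PODXL, WT1, HS3ST3A1 (0.843) and TSPAN7 (a tetraspanin, 0.842). WT1 was nearest to RCAN2 (a calcineurin regulator, 0.889), PTPRO, PODXL, PTPRQ (a phosphatase related to PTPRO, 0.869) and TEDC2 (0.851). These 3 podocyte genes thus stood among each other's nearest 5.

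NPHS1 and SYNPO had no podocyte gene of the 5 among their nearest. For NPHS1 these were NPR3 (the clearance receptor for natriuretic peptides, 0.870), HOXD4 (a homeobox factor, 0.866), AOPEP (an aminopeptidase, 0.857), PLPP3 (a lipid phosphatase, 0.830) and SPAG8 (0.827). For SYNPO they were STX11 (a syntaxin, 0.928), SLC43A1 (an amino acid transporter, 0.918), CLIP2 (a microtubule linker, 0.908), DYSF (dysferlin, 0.907) and FCHSD1 (0.906). The mean standardized pattern of the 5 was nearest to AMPD3 (an AMP deaminase, 0.884), TBX3 (a T-box factor, 0.878), NDNF (0.862), RCAN2 (0.861) and LOC101120029 (0.851). These were followed by HS3ST3A1 (0.849), CLEC14A (0.849), EML1 (0.848), PARD3B (0.848) and FAM110D (0.847).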

How the data were processed

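Kidney RNA from 15 sheep was sequenced as poly(A) libraries. The authors removed adapters and low-quality reads and aligned the rest with HISAT2; the submitters' processing notes name cutadapt 1.9, HISAT2 2.2.1 and StringTie 2.1.6. The deposited tables hold raw counts and FPKM of 25592 genes per library, made by the authors. The sources used here do not say which tool did the counting. Start and end matched ARS-UI_Ramb_v3.0 for 99.6% of 24947 genes matched by symbol. Libraries were grouped by their titles, since the treatment labels count upward within a group, and doses came from the study's methods. Replicates are single sheep.

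Genes with FPKM of at least 1 in at least 5 of 14 libraries were tested on counts with edgeR 4.0.16 (R 4.3.3; TMM, quasi-likelihood, all groups in 1 model), with Benjamini-Hochberg adjustment. The fits were tested on simulated data. Alternatives were all 15 libraries, RLE size factors, no filter, DESeq2 1.42.0, limma 3.58.1 on log2(FPKM + 1) or log2(FPKM + 0.1), a replicate block, only the compared groups, and each library left out. Correlations used log2 CPM (prior count 2) and two-sided permutation tests with 100000 resamples. Counting intervals and floors cover counting error only.

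The podocyte genes and gene lists were chosen with earlier results of these data known. Named were each podocyte gene, list genes called by either rule or else the 3 of highest mean FPKM, the 5 genes nearest in pattern to each podocyte gene and the 10 nearest to their mean. Ratios between podocyte genes, and NCK1, were named after their values were seen. LAMB2, SLC22A6 and LEP were not analysed here, nor were promoter sequences, and some genes that the rule names are not reported here.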

Additional observations from a re-analysis of the deposited data

Results flagged for a closer look

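One library stood apart from its group in the level of a podocyte gene. NPHS1 was at 15.4 FPKM in CON replicate 2, and the nearest CON library was at 10.1. The gap was 0.773 of the range of the 5 CON libraries, above Dixon's critical value of 0.71. It was 1 of 15 sets of values examined (5 genes in 3 groups), and chance flags about 1 in 20. In the same library the ratio of NPHS1 to PODXL was 0.188, against 0.132 to 0.139 in the other CON libraries. The ratio was at most 0.133 in the AFB1 libraries and 0.131 in the AFB1_CUR libraries. Without CON replicate 2 the log2 difference of NPHS1 between AFB1_CUR and CON moved from -0.38 to -0.23.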

How the results depend on the processing

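No podocyte gene was called by either rule in edgeR under any alternative, in DESeq2 or in limma, and the smallest unadjusted p was 0.057 (NPHS1 in AFB1_CUR against CON, only the compared groups). Of 120 values under alternatives other than leaving out 1 library, 18 changed sign, and of 210 with 1 library left out, 28 did, all of differences that were not called. With all 15 libraries the log2 differences for AFB1 against CON were -0.19 (PODXL), -0.26 (PTPRO) and -0.27 (WT1), and for AFB1_CUR against AFB1 0.051 (NPHS1), 0.23 (PODXL), 0.25 (PTPRO) and 0.24 (WT1); the addition of AFB1 replicate 1 makes this change. With limma on log2(FPKM + 1), PODXL was at 0.025, PTPRO at 0.041 and WT1 at 0.039 for AFB1_CUR against AFB1, and PTPRO at 0.051 and WT1 at 0.040 for AFB1_CUR against CON. On log2(FPKM + 0.1), WT1 was at -0.0033 for AFB1 against CON, PODXL at 0.026, PTPRO at 0.046 and WT1 at 0.047 for AFB1_CUR against AFB1, and PTPRO at 0.054 and WT1 at 0.044 for AFB1_CUR against CON. The cause of the sign changes with limma was not tested, and its median over all genes was 0.06 to 0.07 in both comparisons of AFB1_CUR.

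Without single libraries, the AFB1 against CON difference ranged from -0.31 (without AFB1 replicate 4) to 0.057 (without AFB1 replicate 5) for NPHS1, and between the same exclusions from -0.040 to 0.27 for PODXL, -0.19 to 0.19 for PTPRO and -0.18 to 0.20 for WT1. SYNPO ranged from -0.090 to 0.17. For AFB1_CUR against AFB1 the ranges were -0.44 to -0.070 (NPHS1), -0.23 to 0.073 (PODXL), -0.20 to 0.18 (PTPRO), -0.23 to 0.14 (WT1) and -0.12 to 0.14 (SYNPO). For AFB1_CUR against CON they were -0.48 to -0.23 (NPHS1), -0.012 to 0.081 (PODXL), -0.078 to 0.065 (PTPRO), -0.094 to 0.018 (WT1) and -0.013 to 0.12 (SYNPO). Of the 10 podocyte pairs, 6 (without AFB1 replicate 5) to 10 (without AFB1 replicate 2) passed the adjusted threshold, 9 with group means removed, 6 by Spearman's rho and 10 on log2(FPKM + 1). Of the 35 relations to lists, 0 (without AFB1 replicate 5) to 10 (without AFB1_CUR replicate 2) passed, with 3 without AFB1 replicate 4 and 4 without CON replicate 2. By Spearman's rho 5 passed and with group means removed 9.

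Samples share replicate numbers across groups, and the deviations of same-numbered libraries had correlations from -0.279 to 0.552. The value was -0.279 for replicate 1, and 0.382, 0.373 and 0.552 for the replicate 2 pairs. Pairs with different numbers were not computed, so whether equal numbers mark a shared factor was not tested. With a replicate block, the NPHS1 difference between AFB1_CUR and CON was -0.38, 0 podocyte genes were called, and 228, 150 and 282 genes met the screening conditions in AFB1 against CON, AFB1_CUR against AFB1 and AFB1_CUR against CON, against 232, 123 and 214 without it. Each podocyte gene had at least 1154 counts in each of the 14 libraries, and the size of difference that 4 or 5 sheep per group could show was not tested.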
